A study of Drosophila melanogaster with 6 samples.

Results

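Among the genes whose transcripts were lower in the *Drosophila* head 4 hr after penetrating traumatic brain injury (PTBI), 45 were listed in the deposited tables under a CG number alone. A CG number is the identifier that genome annotation gives to a predicted gene, and many genes keep it until they are studied and named. The 45 genes were chosen by their listed symbol (CG and digits) and by a mean RPKM that was lower in the 3 PTBI samples than in the 3 uninjured samples, with *CG5999*, *CG9377*, *CG1315* and *CG9510* left out. RPKM is the number of reads scaled to gene length and to library size, so levels can be compared between genes. The 45 genes are part of 367 listed genes, of which 108 (29.4%) were lower after PTBI. To be listed at all, a gene had to pass the fold limit of 2 and the adjusted p limit of 0.05 that the study set, so the contrast that chose the 45 genes is described here and not tested again.

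Bulk RNA-Seq was run on 6 samples of whole heads, 3 per group. Both groups were young adult males collected within 6 hr of eclosion, from a cross of *w* flies carrying *UAS-mCD8-GFP* and *OK107-GAL4* to *yw*. *OK107-GAL4* is a driver of the mushroom body, so injured and uninjured flies alike expressed membrane GFP there. The PTBI group was pierced with a needle through both sides of the central brain and taken 4 hr later, the uninjured group was matched for age and sex, and each sample pooled about 100 to 120 heads. A whole head also holds fat body, eyes, muscle and cuticle, and in such samples fewer cells of a type and less RNA per cell cannot be told apart. Library sizes worked out from the values ran from 24.3 to 35.2 M reads in the PTBI samples and from 26.5 to 36.2 M reads in the uninjured samples. Of the marker lists for cell types, 6 of 13 fat body markers, 2 of 8 glia markers, 2 of 6 salivary gland markers and 1 of 4 oenocyte and cuticle lipid markers were listed as lower. No marker of neurons (7), photoreceptors (11), muscle (6) or hemocytes (6) was listed, so these have no value here and the tissue could not be checked by them. The summed RPKM of the listed fat body markers ranged from 141 to 334 after PTBI and from 1150 to 1808 in uninjured heads, and the part of fat body RNA in the values of the 45 genes was not tested.

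Although they were listed by number, 8 of the 45 genes carry a name in current annotation, namely *meep* (*CG32335*), *Nepl5* (*CG9507*), *Had1* (*CG9914*), *nkt* (*CG14141*), *Miox* (*CG6910*), *Agpat4* (*CG4753*), *Nep6* (*CG3775*) and *Hao* (*CG18003*). By name, RefSeq synonym or known family, 23 genes were classed. These include *nkt*, which is given by its name without a role. The other 22, *meep* among them, are described by their values only, as genes with no role given. The largest group by level were enzymes of sugars and sugar acids. In mammals, inositol and glucuronate are broken down by a chain of oxidation and reduction steps that leads through gulonate and xylulose into the pentose phosphate pathway, which supplies NADPH and ribose. The fat body, the fly's counterpart of liver and adipose tissue, is known for carbohydrate, lipid and amino acid metabolism and also lines the head capsule. Other roles among the 45 genes were oxidoreductases, peptidases, lipid enzymes and a membrane transporter.

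The 45 genes were between 1.99-fold and 4.22-fold lower after PTBI, as ratios of group mean RPKM, with a median of 2.42. For the other 63 genes listed as lower the median was 2.59 and the largest fold 11.8, both over the genes above 0 after PTBI. Of the 45 genes, 24 were 2 to 2.5-fold lower, 13 were 2.5 to 3-fold lower and 7 were 3-fold lower or more. In the listing as a whole, 29.2% of genes were 2-fold lower or more and 7.36% were 3-fold lower or more. These shares are taken over the genes listed as higher too. Of the other 63 genes listed as lower, 20 were 3-fold lower or more. In none of the 45 genes did the samples of both groups overlap, as was so for all 108 genes listed as lower (29.4% of the listing). This follows from how the genes were chosen. The distance between the groups differed widely all the same: the lowest uninjured sample was 2.88 times the highest PTBI sample for *CG9119* and 1.14 times for *CG7031*, with a median of 1.74, and it was more than 1.5 times as high in 37 genes. Summed over the 45 genes, RPKM was 653, 673 and 774 in the PTBI samples and 1729, 1712 and 1862 in the uninjured samples.

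**Figure D1:**
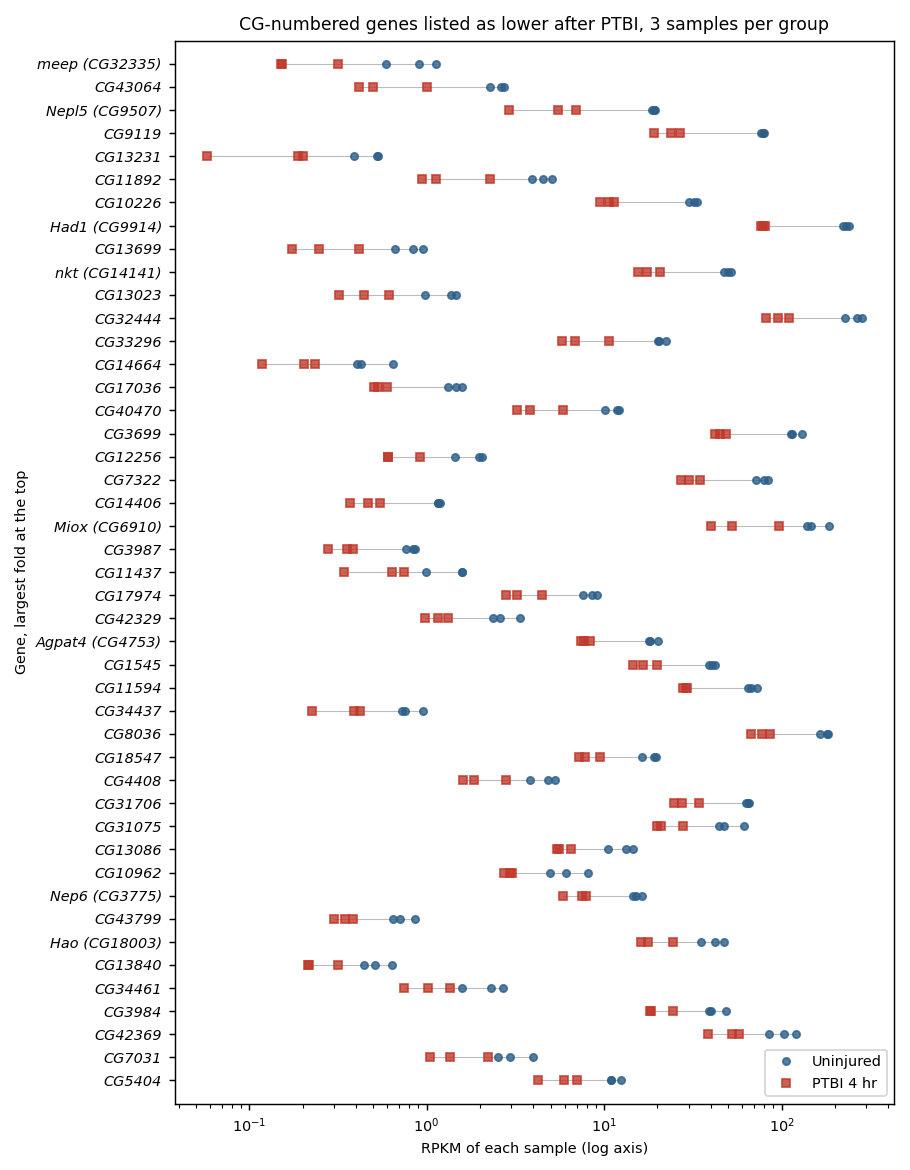
RPKM of every sample (log axis) for the 45 genes, ordered by fold with the largest at the top. Red squares are the 3 PTBI samples and blue circles the 3 uninjured samples. In every row all squares lie to the left of all circles, and the levels run from 0.0581 RPKM for *CG13231* to 283 RPKM for *CG32444*.

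Levels in uninjured heads spanned from 0.482 RPKM for *CG13231* to 259.7 RPKM for *CG32444*, with a median of 11.4. In these heads, 8 genes were under 1 RPKM, 13 were at 1 to 10 RPKM, 18 at 10 to 100 RPKM and 6 at 100 RPKM or more. The 6 most abundant genes, *CG32444*, *Had1*, *CG8036*, *Miox*, *CG3699* and *CG42369*, made up 59.2% of the summed RPKM of the 45 genes. The fold did not follow the level: its median was 2.55 under 1 RPKM, 2.42 at 1 to 10 RPKM, 2.39 at 10 to 100 RPKM and 2.56 at 100 RPKM or more. Across the 45 genes, which share the same 6 libraries, Pearson's r of log2 fold and log2 uninjured level was -0.11 and Spearman's rho -0.058. The spread did follow the level, with a rho of -0.51 between uninjured level and the coefficient of variation (CV, the SD as a share of the mean) of the uninjured samples.

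**Figure D2:**
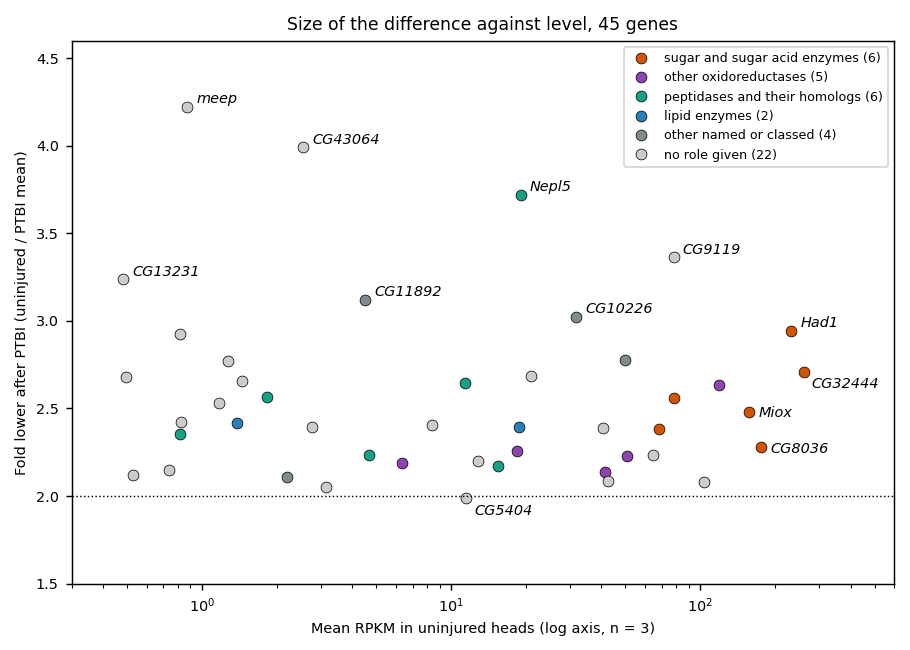
Fold (uninjured mean over PTBI mean) against the mean RPKM in uninjured heads (log axis) for the 45 genes, with colours for the roles given in the text and the number of genes in the key. The dotted line marks 2-fold. The 6 sugar and sugar acid enzymes (orange) lie at the right, at 68.2 RPKM or more, with folds of 2.28 to 2.95, while the largest folds, of *meep* and *CG43064*, lie at 0.873 and 2.55 RPKM.

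The enzymes of sugars and sugar acids were *Miox*, *Had1*, *CG7322*, *CG11594*, *CG8036* and *CG32444*. They were all abundant, at 68.2 to 259.7 RPKM in uninjured heads, and with 54.9% held more of the summed RPKM than the other 39 genes together. Their folds ran from 2.28 to 2.95, with a median of 2.52. The group was put together after the genes were seen, from what each is known to encode.

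*Miox* (chromosome 3L, 12184984 to 12187860, in the BDGP6 assembly) encodes inositol oxygenase, which turns myo-inositol into glucuronate. Its level was 39.95, 52.5 and 97.0 RPKM in PTBI replicates 1, 2 and 3 and 146, 139 and 185 RPKM in uninjured replicates 1, 2 and 3. Replicate 3 was the highest in both groups, and by far so after PTBI. The means were 63.2 ± 29.98 and 157 ± 24.8 RPKM (SD, n = 3 per group), 2.48-fold lower after PTBI, and the fold was 3.39 without PTBI replicate 3 and 2.10 without PTBI replicate 1.

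*Had1*, whose RefSeq synonyms include CRYL1, is related to the mammalian dehydrogenase that oxidizes gulonate. It was among the steadiest of the 45 genes, at 76.4, 78.7 and 80.5 RPKM after PTBI and 232, 222 and 240.2 RPKM in uninjured heads. The samples of each group lay close together and the groups far apart. Its means were 78.5 ± 2.04 and 231 ± 9.37 RPKM (SD, n = 3 per group), 2.95-fold lower after PTBI, and the CV of 2.60% in the PTBI samples was the lowest of all 45 genes.

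*CG7322* (chromosome X, 18855873 to 18857757), a short-chain dehydrogenase related to mammalian L-xylulose reductase, was at 27.2, 30.3 and 34.7 RPKM after PTBI and at 71.7, 84.2 and 80.1 RPKM in uninjured heads. It was 2.56-fold lower. *CG11594* (chromosome 3L, 4022700 to 4026011), a carbohydrate kinase of the FGGY family, was at 29.2, 27.7 and 29.0 RPKM after PTBI and at 67.2, 64.6 and 72.8 RPKM in uninjured heads, 2.38-fold lower. Like *Had1* it varied little among the PTBI samples, with a CV of 2.86%.

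*CG8036* (chromosome 3R, 8667868 to 8673702), listed by RefSeq also as Transk, encodes a transketolase, an enzyme of the nonoxidative pentose phosphate pathway. It was at 77.8, 67.6 and 85.8 RPKM after PTBI and at 182, 165 and 179.6 RPKM in uninjured heads, with means of 77.1 ± 9.12 and 176 ± 9.38 RPKM (SD, n = 3 per group), 2.28-fold lower. Among the 44 genes with recovered reads, *Had1* not being one of them, it had the most, 19273 in all over the PTBI samples and 44397 over the uninjured samples. *CG32444* (chromosome 3L, 21636947 to 21639060), an aldose epimerase that interconverts the ring forms of sugars, had the highest level of the 45 genes. It was at 95.5, 82.2 and 109.9 RPKM after PTBI and at 268, 229 and 283 RPKM in uninjured heads, 2.71-fold lower. In both groups replicate 2 was the lowest and replicate 3 the highest.

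To place these enzymes, 16 genes of inositol breakdown, xylulose handling and the pentose phosphate pathway were looked up, again chosen after the listing was seen. Of these, 7 were listed as lower, 5 of them among the 45 genes, none as higher, and 9 were not listed. The 5 were known to be lower when the 16 genes were chosen. The count therefore cannot show whether these pathways fell as a whole, and no share over all annotated genes was worked out. The other 2 listed genes have names: *Sodh1* (listed as *Sodh-1*), a polyol dehydrogenase, was 3.89-fold lower, at 60.2 ± 13.8 RPKM after PTBI and 234 ± 23.2 RPKM in uninjured heads, and *Taldo*, the transaldolase, was 2.01-fold lower, at 126 ± 6.80 and 252 ± 17.7 RPKM (SD, n = 3 per group). *Zw*, *Pgd* and *Pgls*, the oxidative branch of the pentose phosphate pathway, and *Rpi*, *Rpe*, *Inos*, *Sodh2*, *CG3534* and *CG5103* were not listed and have no value here. In a separate fixed list of carbohydrate metabolism, 4 of 47 annotated genes were listed as lower and 2 as higher. *CG32444* was the only one of the 45 genes in it. Of the 7 lower genes above, only *Sodh1* had been entered in that list, so it is no background for them.

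**Figure D3:**
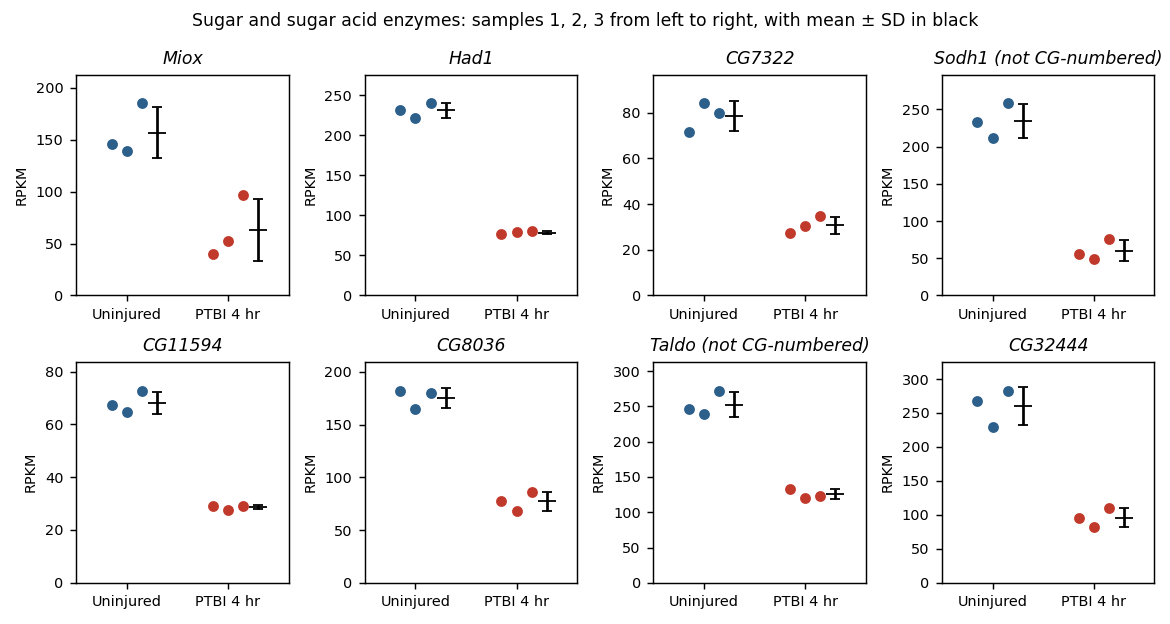
RPKM of each sample for 8 genes of sugar and sugar acid metabolism, blue for uninjured and red for PTBI samples, replicates 1, 2 and 3 from left to right, with the mean and SD of each group in black. *Sodh1* and *Taldo*, which have names in the listing, are shown for comparison. All 8 genes are lower in every PTBI sample, and *Miox* has the widest PTBI spread, from 39.95 to 97.0 RPKM.

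A further 5 genes encode oxidoreductases, with folds of 2.14 to 2.63. The most abundant was *CG3699* (chromosome X, 946662 to 947500), a short-chain dehydrogenase with DECR2 as a synonym. It was at 45.0, 42.1 and 48.8 RPKM after PTBI and at 113, 114 and 131 RPKM in uninjured heads, 2.63-fold lower. *CG31075*, an aldehyde dehydrogenase, was at 19.8, 20.8 and 28.0 RPKM after PTBI and at 44.3, 47.3 and 61.4 RPKM in uninjured heads, 2.23-fold lower. *Hao*, a hydroxyacid oxidase of the peroxisome, was at 17.7, 16.2 and 24.3 RPKM after PTBI and at 35.1, 42.1 and 47.2 RPKM in uninjured heads, 2.14-fold lower. As for *Miox*, replicate 3 was the highest of both groups for these 3 genes. *CG18547*, an aldo-keto reductase, was 2.25-fold lower, at 8.14 ± 1.17 against 18.4 ± 1.68 RPKM (SD, n = 3 per group).

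*CG10962*, another short-chain dehydrogenase, was at 2.74, 3.02 and 2.97 RPKM after PTBI and at 4.94, 8.11 and 6.07 RPKM in uninjured heads, 2.19-fold lower. Here the uninjured samples spread more, with a CV of 25.2% against 5.03% after PTBI. A noncoding gene on the same strand, *lncRNA:CR43836*, shares 44.0% of its exon bases, so its reads are uncertain. Among 171 annotated detoxification enzymes, 10 were listed as lower and 3 as higher, and *CG10962* was the only one of the 45 genes among them. Of 49 genes of amino acid metabolism, 3 were listed as lower and none as higher, and *CG31075* was the only one of the 45 genes among these.

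Peptidases and their homologs made up 6 of the 45 genes, all of them under 20 RPKM, with folds of 2.17 to 3.72. Neprilysins are zinc metallopeptidases that cleave small peptides outside the cell, and 2 members of this family were lower. *Nepl5* (chromosome 2L, 6381266 to 6383419) was at 5.49, 6.92 and 2.93 RPKM after PTBI and at 19.2, 19.4 and 18.5 RPKM in uninjured heads. The uninjured samples were nearly equal, with a CV of 2.40%, while the PTBI samples differed by more than 2 times. The gene was 3.72-fold lower, the third largest fold of the 45 genes, and 4.52-fold lower without PTBI replicate 2 (3.07-fold without PTBI replicate 3). *Nep6* was at 5.86, 7.94 and 7.47 RPKM after PTBI and at 15.2, 14.6 and 16.3 RPKM in uninjured heads, 2.17-fold lower.

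*CG40470*, an aminopeptidase of the M1 family whose gene spans a long stretch of chromosome 3L (23839860 to 23986410), was at 3.22, 5.85 and 3.81 RPKM after PTBI and at 10.1, 12.2 and 11.9 RPKM in uninjured heads, 2.65-fold lower. *CG4408*, a zinc carboxypeptidase, was 2.24-fold lower, at 2.09 ± 0.628 against 4.67 ± 0.753 RPKM (SD, n = 3 per group). The serine protease gene *CG12256* (SP133 in RefSeq) was 2.57-fold lower, from 160 reads over the uninjured samples and 58 over the PTBI samples. Of its exon bases, 85.1% are shared with the antisense gene *asRNA:CR43477*, and no source used here states whether reads were counted by strand. The same limit holds, to a lesser extent, for *CG32444* and *CG11594*, with 28.6% and 21.2% of exon bases shared with a gene on the opposite strand. The serine protease homolog *CG34437* (SPH201) was 2.36-fold lower on 66 and 27 reads. In the list of secreted proteases, 1 of 57 annotated genes was listed as lower and 5 as higher. None of the 45 genes was in that list. *CG12256* and *CG34437* had not been entered in it, so its counts leave them out.

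Lipid enzymes were represented by *Agpat4* and *CG11437*. *Agpat4*, which acylates lysophosphatidic acid on the way to phospholipids and triglycerides, was at 8.38, 7.42 and 7.68 RPKM after PTBI and at 20.2, 17.8 and 18.2 RPKM in uninjured heads, 2.39-fold lower. *CG11437*, a relative of the lipid phosphate phosphatase wunen, was much less abundant, at 0.634, 0.745 and 0.344 RPKM after PTBI and at 1.59, 1.59 and 0.988 RPKM in uninjured heads, 2.42-fold lower. In both groups its replicate 3 stood below the other 2 samples, but on few reads. These were 19, 18 and 12 after PTBI and 47, 57 and 26 in uninjured heads. The fixed list of lipid metabolism, with 2 of 60 annotated genes listed as lower and 1 as higher, held none of the 45 genes. *Agpat4* and *CG11437* had not been entered in it.

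*CG10226* (chromosome 3L, 6234323 to 6240068) encodes an ABC transporter of the multidrug resistance type, a pump that moves compounds out of cells. It was at 10.7, 11.4 and 9.45 RPKM after PTBI and at 32.1, 33.2 and 30.1 RPKM in uninjured heads, 3.02-fold lower on 1309 reads or more in every sample. Its neighbour on the same strand, 431 bp away, is *Mdr65*, a transporter of the same type that is known from the glia of the blood-brain barrier. *Mdr65* was at 14.4, 13.7 and 13.2 RPKM after PTBI and at 39.6, 34.4 and 34.7 RPKM in uninjured heads, 2.64-fold lower. The transporter list, in which *CG10226* had not been entered, had 2 of 81 annotated genes listed as lower and 3 as higher.

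*nkt*, named noktochor (chromosome 3L, 11201351 to 11202158), was at 17.4, 20.7 and 15.5 RPKM after PTBI and at 49.7, 52.1 and 47.1 RPKM in uninjured heads, 2.78-fold lower. In both groups its replicates were in the same order, replicate 2 highest and replicate 3 lowest. *CG11892*, of the ecdysteroid kinase-like family, was at 1.13, 2.27 and 0.938 RPKM after PTBI and at 3.95, 5.09 and 4.53 RPKM in uninjured heads. PTBI replicate 2 stood at about 2 times the next sample, and the fold of 3.12 was 4.37 without it and 2.65 without PTBI replicate 3. *CG34461*, the cuticle protein gene *Cpr66Ca* by its synonym, was at 1.36, 0.746 and 1.02 RPKM after PTBI and at 2.69, 1.58 and 2.31 RPKM in uninjured heads. With 2.11-fold and a lowest uninjured sample only 1.16 times the highest PTBI sample, its groups came close to each other.

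The 2 largest folds belonged to genes of low level. *meep* (chromosome 3L, 1201871 to 1203036) was at 0.153, 0.152 and 0.315 RPKM after PTBI and at 0.589, 1.12 and 0.905 RPKM in uninjured heads, 4.22-fold lower. These levels rest on 5, 4 and 12 reads after PTBI and on 19, 44 and 26 reads in uninjured heads, and the fold was 5.73 without PTBI replicate 3 and 3.61 without uninjured replicate 2, but 1.55 with a pseudocount of 1 RPKM added to both means. *CG43064* was at 0.414, 1.01 and 0.497 RPKM after PTBI and at 2.73, 2.64 and 2.28 RPKM in uninjured heads, 3.99-fold lower on 25, 49 and 35 against 163, 191 and 121 reads. PTBI replicate 2 again was at about 2 times the others, and without it the fold was 5.60. With the pseudocount of 1 RPKM the fold of *CG43064* was 2.17.

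*meep* and *CG9119* are neighbours on the same strand of chromosome 3L, 279 bp apart, and the longest protein of each has 322 residues in the annotation. *CG9119* (1203316 to 1204795) was far more abundant than *meep*, at 26.7, 19.1 and 24.0 RPKM after PTBI and at 78.5, 76.9 and 79.3 RPKM in uninjured heads. The uninjured samples were within a CV of 1.57%, and the gene was 3.36-fold lower with the widest distance between groups of all 45 genes. After PTBI, replicate 3 was the highest for *meep*, on 12 reads against 5 and 4, and replicate 1 was the highest for *CG9119*. With so few reads of *meep*, it cannot be told whether the replicates of the neighbours go together.

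In the annotated order of protein-coding genes, 8 of the 45 genes stand next to another gene listed as lower. Of these 8, 6 stand next to each other in 3 pairs. The share among other genes was not worked out, so these counts do not show whether the 45 genes cluster. Besides *meep* and *CG9119*, the pairs are *CG3984* with *CG3987* and *CG7031* with *CG13840*, all on chromosome 3R. The first 2 genes are 950 bp apart on one strand, and the last 2 are 7192 bp apart on opposite strands. *CG3984* was at 24.6, 18.4 and 18.2 RPKM after PTBI and at 49.0, 38.9 and 39.8 RPKM in uninjured heads, 2.09-fold lower, while *CG3987* was at 0.357, 0.277 and 0.383 RPKM after PTBI and at 0.837, 0.765 and 0.864 RPKM in uninjured heads, 2.42-fold lower. The antisense gene *asRNA:CR45600* shares all exon bases of *CG3984* and 7.01% of those of *CG3987*. As for *CG12256*, no source used here states whether reads were counted by strand, so the reads of *CG3984* are uncertain. *CG7031* was at 2.21, 1.36 and 1.04 RPKM after PTBI and at 3.98, 2.51 and 2.95 RPKM in uninjured heads, 2.05-fold lower, and *CG13840* at 0.215, 0.218 and 0.319 RPKM and at 0.514, 0.636 and 0.444 RPKM, 2.12-fold lower. In every pair the more abundant gene was more than 5 times as high in uninjured heads as its neighbour.

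The remaining genes next to a gene listed as lower are *CG10226*, described above with *Mdr65*, and *Miox*, which lies 957 bp from the esterase gene *Est-6* on the same strand. *Est-6* was at 79.1, 119 and 114 RPKM after PTBI and at 245, 320.1 and 304 RPKM in uninjured heads, 2.79-fold lower. Its replicate 1 was the lowest and its replicate 2 the highest in both groups. *Miox* was also lowest in replicate 1 after PTBI, but in replicate 2 in uninjured heads. It was highest in replicate 3 of both groups. *Nepl5* and *CG42369* are 2 genes apart on chromosome 2L. *CG42369* was at 38.3, 52.3 and 57.6 RPKM after PTBI and at 84.7, 120.3 and 103.8 RPKM in uninjured heads, 2.08-fold lower, the sixth most abundant of the 45 genes.

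Of the 44 genes found in the annotation, all protein-coding, 14 lie on chromosome 3L, 13 on 3R, 8 on 2L, 6 on X and 3 on 2R. Chromosome 3L thus holds 31.8% of them and 19.6% of annotated protein-coding genes, and chromosome 2R 6.82% and 20.4%. The other genes listed as lower were spread more evenly, with 12 on 3L and 13 on 2R. These are counts with no test. The longest annotated proteins ran from 84 residues for *CG14664* to 1320 residues for *CG10226*, with a median of 375.

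The genes with no role given had a median level of 2.66 RPKM in uninjured heads, but some were well expressed. *CG31706* was at 24.8, 34.2 and 27.6 RPKM after PTBI and at 65.1, 65.3 and 63.2 RPKM in uninjured heads, 2.23-fold lower. *CG1545* was at 14.6, 19.9 and 16.6 RPKM after PTBI and at 40.7, 39.1 and 42.1 RPKM in uninjured heads, 2.39-fold lower. *CG33296* was at 5.79, 10.6 and 6.90 RPKM after PTBI and at 20.4, 20.1 and 22.2 RPKM in uninjured heads, 2.68-fold lower. In these 3 genes PTBI replicate 2 was the highest of its group while the uninjured samples were within a CV of 6%.

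*CG5404* had the smallest difference of the 45 genes and was the only one under 2-fold as a ratio of means. It was at 5.92, 7.08 and 4.24 RPKM after PTBI and at 10.96, 12.4 and 10.9 RPKM in uninjured heads, 1.99-fold lower, while *CG7031* and *CG42369* lay just above 2-fold. On the other side of the listing, the CG-numbered gene with the smallest increase was *CG18171*, 1.93-fold higher after PTBI. *CG17974* and *CG13086*, at 8.42 and 12.8 RPKM in uninjured heads, were 2.41-fold and 2.20-fold lower.

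At the lower end, *CG13231*, *CG14664* and *CG13840* had the lowest levels. *CG13231* was at 0.187, 0.0581 and 0.201 RPKM after PTBI and at 0.522, 0.391 and 0.533 RPKM in uninjured heads, 3.24-fold lower. This rests on 4, 1 and 5 reads against 11, 10 and 10, and the fold was 2.48 without PTBI replicate 2 and 3.93 without PTBI replicate 3. *CG14664* was at 0.118, 0.234 and 0.203 RPKM after PTBI and at 0.406, 0.650 and 0.429 RPKM in uninjured heads, 2.68-fold lower on 23 and 66 reads. *CG13699* was 2.92-fold lower, at 0.247, 0.175 and 0.416 RPKM after PTBI and 0.840, 0.950 and 0.662 RPKM in uninjured heads, and *CG13023* 2.77-fold lower, at 0.613, 0.445 and 0.321 RPKM and 1.47, 0.973 and 1.38 RPKM. With a pseudocount of 1 RPKM the folds were 1.29 for *CG13231*, 1.26 for *CG14664*, 1.22 for *CG13840*, 1.42 for *CG13699*, 1.56 for *CG13023* and 1.36 for *CG3987*. Fewer than 50 reads over the 3 PTBI samples were found for 9 of the 45 genes. The other low genes, *CG17036*, *CG14406*, *CG42329* and *CG43799*, were 2.65-fold, 2.53-fold, 2.40-fold and 2.15-fold lower from 0.739 to 2.76 RPKM in uninjured heads.

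Within most of the 45 genes, the PTBI samples differed from each other more than the uninjured samples. The CV was larger after PTBI in 36 of the 45 genes, with a median of 19.6% against 10.8% in uninjured heads. The highest PTBI sample was at least 2 times the lowest in 9 genes, and in no gene was this so for the uninjured samples, where the largest ratio was 1.91. For the other 63 genes listed as lower, the CV was larger after PTBI in 47, with medians of 22.7% and 13.3%. For the 121 CG-numbered genes listed as higher it was larger after PTBI in 60, with medians of 19.3% after PTBI and 21.3% in uninjured heads, and over all 367 listed genes in 215. Lower counts after PTBI add counting error to the spread of the 45 genes, and its part was not tested.

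No single PTBI sample stood apart for all genes. Relative to the uninjured mean, the median of the 45 genes stood at 38.1%, 40.6% and 41.0% in PTBI replicates 1, 2 and 3. Replicate 1 was the lowest of its group in 19 genes, replicate 2 in 14 and replicate 3 in 12. Replicate 2 was the highest and at least 1.3 times the next sample in 5 genes, *CG43064*, *CG11892*, *CG33296*, *CG40470* and *CG12256*, while replicate 3 was so in 7 genes, *meep*, *Miox*, *CG13699*, *CG4408*, *CG13840*, *Hao* and *CG31075*, and replicate 1 in 5 genes, *CG7031*, *CG17974*, *CG13023*, *CG34461* and *CG3984*. All 5 of the latter were highest in uninjured replicate 1 as well. In 25 of the 45 genes the same replicate number was the highest in both groups, 10 times replicate 3, 9 times replicate 2 and 6 times replicate 1. The summed RPKM of the listed fat body markers was 141, 250 and 334 in PTBI replicates 1, 2 and 3. In uninjured replicates 1, 2 and 3 it was 1150, 1305 and 1808. The summed RPKM of the 45 genes was 653, 673 and 774 after PTBI and 1729, 1712 and 1862 in uninjured heads. A link between these sums was not tested. The marker *Lsp2* alone held 108 and 1179 RPKM of the fat body sums in PTBI and uninjured replicate 3. Without PTBI replicate 2, 11 genes instead of 7 were 3-fold lower or more.

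**Figure D4:**
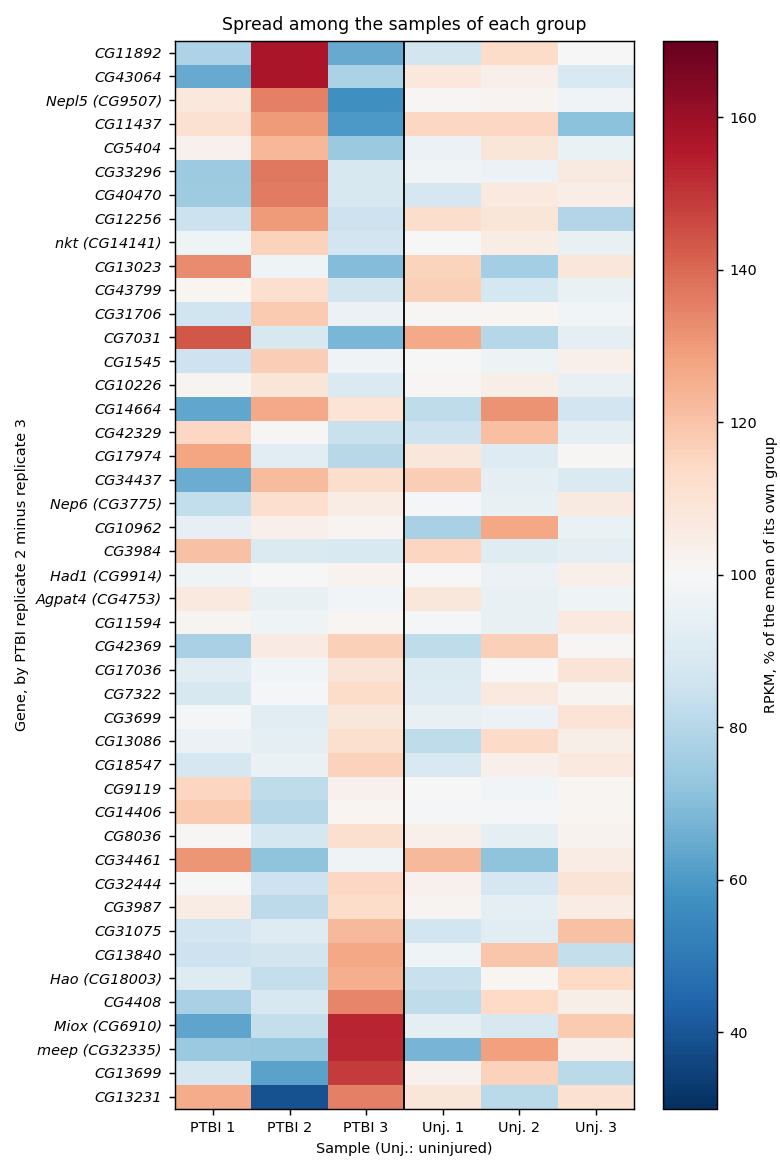
RPKM of each sample as a percentage of the mean of its own group, for the 45 genes (rows) and the 6 samples (columns), ordered by the difference between PTBI replicates 2 and 3. Red is above and blue below the group mean. The PTBI columns are more strongly coloured than the uninjured columns; *CG11892* and *CG43064* at the top were highest in PTBI replicate 2, and *Miox* and *meep* near the bottom in PTBI replicate 3.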

How the data were processed

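RNA-Seq of 6 pooled head samples was analysed, 3 per group, mapped to conditions by their labels. The authors prepared strand-specific mRNA libraries, mapped single-end 50 bp reads with Subjunc of the Subread package, and tested voom-normalized gene counts with limma. They used a genome from FlyBase, of a release not given in the sources used here. The deposited RPKM of each sample were computed by the authors and are held only for genes past their limits. The tables also hold the authors' mean expression, fold changes and p-values, which were not used. No column of another sample was present.

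Means, SDs and ratios of mean RPKM were computed, with no pseudocount and no filter, in Python 3.11.15 with numpy 2.4.6, pandas 2.3.3 and scipy 1.17.1, and drawn with matplotlib 3.10.9. No test was run, because the contrast chose the genes. Gene identifiers were looked up in Ensembl 115, on BDGP6 (360 of 367 listed genes, 44 of the 45), and *CG9914* to *Had1* by its locus tag in the RefSeq table of the Release 6 assembly. RPKM times exon length gave whole reads, within 0.02, in all samples for 357 genes and for 44 of the 45, from which library sizes follow. This recovery was tested on simulated data. 

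The members and lists were chosen with earlier results of these data known. Genes given with all sample values were the 12 with the largest fold, the 6 with the highest and the 3 with the lowest uninjured level, the 3 nearest to 2-fold, those next to a listed lower gene, up to 4 of each list, and the 3 with the largest CV of each group. Further members were added for their role after their values were seen. Samples with the same number shared deviations from the group mean, with correlations of 0.24, 0.12 and 0.16 across the 367 genes. Across the 45 genes the correlations were 0.57, 0.33 and 0.60. All were over the limit of 0.1, so same-numbered samples were taken as pairs in 1 alternative. The folds, SDs and CVs given above are not paired. The labels name no shared batch or day. Alternatives were group medians, pseudocounts of 1 and 0.1, a filter at a mean of 1 RPKM, scaling to the median of the listed genes, ratios of same-numbered samples and each sample left out in turn. The planned motif search in promoters was not run, as no sequences were used here.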

Additional observations from a re-analysis of the deposited data

How the results depend on the processing

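The median fold of 2.42 was 2.48 with group medians, 2.06 with a pseudocount of 1, 2.34 with 0.1 and 2.39 in the 33 genes with a mean of at least 1 RPKM. The number of genes at 2-fold lower or more was 26 with a pseudocount of 1, against 44 without, and at 3-fold or more 2 against 7, because the pseudocount shrinks ratios of low genes. With ratios of same-numbered samples as a replicate block, the median fold was 2.40, with 41 genes at 2-fold and 8 at 3-fold or more, so that the block moved no count by over 1.5 times. Scaling each sample to the median of the listed genes, which was 0.76 higher (log2) in the PTBI samples since most listed genes were higher, took the median fold to 4.07, with all 45 genes at 3-fold or more.

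With each sample left out in turn, the median fold ranged from 2.42 to 2.504, the genes at 2-fold or more from 40 to 44 and the genes at 3-fold or more from 7 to 11 (11 without PTBI replicate 2). No direction could turn when a sample was left out, since the groups of each gene did not overlap to begin with. No gene moved by over 1.5 times, and 10 genes were under 2-fold without 1 of the samples. Of the 25 genes named by the rule, all stayed within their spread under group medians and without any 1 sample, 7 (*meep*, *CG13231*, *CG13699*, *CG13023*, *CG14664*, *CG13840* and *CG3987*) moved beyond it with a pseudocount of 1, and all 25 did so under scaling. Depth limits the low genes most: 7 genes had a PTBI sample with fewer than 10 reads.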

Other observations

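Some of the 45 genes lie close to genes that were listed as higher after PTBI. Within 5 protein-coding genes on either side, 9 of the 45 had a listed higher neighbour and 11 a listed lower one. Most listed genes were higher, and the share of all annotated genes with such neighbours was not worked out. These counts therefore show neither an excess nor a lack. *CG11437* is 2 genes from *CG11425*, with 58.5 ± 3.49 RPKM after PTBI and 17.1 ± 0.881 RPKM in uninjured heads (SD, n = 3 per group) and thus 3.41-fold higher, while *CG11437* itself was 2.42-fold lower. *CG33296* is 3 genes from *Tep2*, a thioester protein gene of immunity that was 3.02-fold higher, at 147 ± 15.8 against 48.8 ± 0.904 RPKM. *CG42369* is 2 genes and *Nepl5* 4 genes from *Tig*, an extracellular matrix gene that was 3.10-fold higher, and *CG10226* is 4 genes from *Ldh*, lactate dehydrogenase, which was 2.56-fold higher at 20.4 ± 4.82 against 7.95 ± 1.46 RPKM. These neighbours were looked up after the values were seen.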
